A study of Mus musculus with 8 samples.

Results

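The genes described here are 10 immediate-early and AP-1 genes, namely Fos, Fosb, Jun, Junb, Egr1, Ier2, Atf3, Zfp36, Dusp1 and Myc, in pancreatic tissue. They were chosen by name, with earlier results of these data known, and all 10 were found among the 21434 genes of the table. RNA-seq covered 8 untreated mice at 18 weeks of age, 4 Bach2KO and 4 Bach2WT, each group with 2 females (mice 1 and 2) and 2 males (mice 3 and 4). Bach2KO mice carried the C57BL/6N-Bach2tm1b(EUCOMM)Wtsi/leg allele in every tissue, so that the loss of Bach2 was neither inducible nor restricted to the pancreas, and Bach2WT mice were of the same C57BL/6N strain. The study bred its mice at a pair of sites, and the site of each sequenced mouse is not given in the sources used here. The comparison asks which pancreatic transcripts differ in level between mice with and without Bach2, in which the study looked for autoimmune pancreatitis.

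Immediate-early genes are transcribed within minutes of a stimulus, without prior synthesis of new protein, and their mRNAs are short-lived. Growth factors, stress and cytokines switch them on through MAP kinases. These, or kinases that they activate, phosphorylate factors already bound at the promoters of the genes, such as the serum response factor complex and CREB. Fos and Jun proteins pair to form AP-1, which binds the sequence TGAGTCA. Bach2 is a repressor of the same basic leucine zipper class, binds an extended form of that sequence together with small Maf proteins, and in lymphocytes occupies sites that AP-1 also uses. In the pancreas, AP-1 genes are known to respond early when acinar cells are overstimulated by secretagogues.

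RefSeq promoter windows (GRCm38.p6), the 250 bases before the transcription start, were at hand for 7 of the 10 genes, not for Egr1, Ier2 and Myc. The 4 below belong to genes that varied widely and together among the mice, a choice made after the values were seen, and they show that these promoters share some elements and not others. Capitals mark the core of the cAMP response element, to which CREB and ATF proteins bind (TGACG, on either strand), and the TATA box (TATAAA, forward strand only). The Fos window is chr12:85473640-85473889 on the plus strand, and those of Junb (chr8:84978749-84978998), Dusp1 (chr17:26508473-26508722) and Zfp36 (chr7:28379229-28379478) are on the minus strand. Each reads 5′ to 3′ along its gene.
Fos: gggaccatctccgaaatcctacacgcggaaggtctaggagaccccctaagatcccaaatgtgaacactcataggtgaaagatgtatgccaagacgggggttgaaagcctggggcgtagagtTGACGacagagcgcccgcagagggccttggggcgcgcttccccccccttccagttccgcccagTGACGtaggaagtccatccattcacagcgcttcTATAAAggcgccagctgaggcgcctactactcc
Junb: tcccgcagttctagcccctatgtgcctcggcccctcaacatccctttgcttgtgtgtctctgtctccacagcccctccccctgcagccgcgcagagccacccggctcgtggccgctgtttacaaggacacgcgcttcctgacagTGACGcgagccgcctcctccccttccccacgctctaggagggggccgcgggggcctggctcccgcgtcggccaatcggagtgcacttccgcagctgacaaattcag
Dusp1: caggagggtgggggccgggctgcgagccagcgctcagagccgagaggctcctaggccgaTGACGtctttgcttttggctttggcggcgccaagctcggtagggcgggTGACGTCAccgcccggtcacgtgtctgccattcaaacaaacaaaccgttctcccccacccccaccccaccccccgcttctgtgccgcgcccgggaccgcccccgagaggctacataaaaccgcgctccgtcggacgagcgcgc
Zfp36: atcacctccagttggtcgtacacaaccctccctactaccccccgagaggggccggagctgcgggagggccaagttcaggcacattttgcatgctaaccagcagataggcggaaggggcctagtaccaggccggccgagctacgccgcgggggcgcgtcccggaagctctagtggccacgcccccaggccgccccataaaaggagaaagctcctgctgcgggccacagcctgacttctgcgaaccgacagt
The core TGACG was present in 5 of the 7 windows (Fos, Fosb, Junb, Atf3 and Dusp1) and in 17.8% of 32851 promoters of the same length. In Fos it began 129 and 66 bases before the start, in Junb 106 bases and in Dusp1 191 and 143 bases before it. The copy at 143 bases in Dusp1 is part of the full palindrome TGACGTCA, which no other of the 7 windows held and which 1.55% of all promoters did. The TATA box was found only in Fos among the 7 (7.59% of all promoters). Letters that match the CArG box, the serum response element, were found only in Zfp36, 58 bases before the start (1.47% of all promoters). Elements farther than 250 bases upstream, in Fos or any other gene, were not searched, and Egr1 had no window. Neither the AP-1 sequence TGAGTCA (4.46% of all promoters) nor its extended form GCTGAGTCA (0.390%), both searched on both strands, was in any of the 7 windows. The GC content of the 7 windows was 58.4% to 68.8%, against a median of 52.4% over all promoters. These matches are matches of letters only.

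The libraries held 72299745 to 172029360 counts on genes. Levels are given as CPM, the usual count relative to the library's total, here after TMM normalization, and 3 counts corresponded to 0.0155 to 0.0432 CPM. Even counts made up 73.6% to 76.1% of the values from 1 to 20 in each library, and all 8 counts of Fosb were even, and it is not stated in the sources used here whether a read pair added 1 count or 2. In the second case a low value rests on fewer fragments than its count. Bach2 itself had 3 to 31 counts per library, 0.0362 to 0.159 CPM in Bach2KO and 0.0305 to 0.216 CPM in Bach2WT mice (two-sided exact permutation p = 0.943), and these few counts cannot check the labels, the less so as the tm1b allele lacks an exon rather than the whole gene. All 10 markers of acinar cells were present in every library, at a summed 403452 to 458847 CPM in Bach2KO and 437892 to 586685 CPM in Bach2WT mice. The library of Bach2KO mouse 3 stood apart from the other 7. On the first principal component of all tested genes it lay at 101.8, with the others between -34.8 and 7.22, and its share of mitochondrial counts was 0.367%, with 0.118% to 0.178% in the others. In bulk tissue, more cells of a type that expresses a gene and more RNA of that gene per cell cannot be told apart.

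Per kilobase, Ier2 was the most abundant of the 10 genes by its mean and by its median, and the order of the next genes depended on Bach2KO mouse 3. Averaged over the 8 mice, the level was 2.95 FPKM (counts per kilobase of gene length, scaled by the authors) for Ier2, 1.01 for Junb, 0.849 for Myc, 0.688 for Zfp36, 0.584 for Jun, 0.552 for Dusp1, 0.518 for Egr1, 0.312 for Fos, 0.0914 for Atf3 and 0.0411 for Fosb. By the median, Myc (0.749 FPKM) and Jun (0.654 FPKM) stood above Junb (0.489 FPKM), whose mean includes 4.17 FPKM in Bach2KO mouse 3. The Bach2WT means had the same order, 0.644 ± 0.188 FPKM for Myc, 0.397 ± 0.242 FPKM for Jun and 0.360 ± 0.162 FPKM for Junb (SD, n = 4). The neighbours Junb, Myc, Zfp36, Jun, Dusp1 and Egr1 overlapped widely from mouse to mouse, and only Ier2 stayed above 2 FPKM in every library (2.22 to 4.23 FPKM). The spread between mice also differed widely from gene to gene. The highest Ier2 level in CPM was 1.99 times the lowest, against 3.92 times for Myc, 4.54 times for Jun and 6.70 times for Atf3. The ratio was 21.3 for Zfp36, 25.4 for Dusp1, 27.0 for Junb and 239 for Egr1. That of Egr1 rests on 4 counts in Bach2WT mouse 4 (0.0576 CPM), near the 0.0432 CPM of 3 counts there. The next lowest Egr1 level was 0.442 CPM, in Bach2WT mouse 2. Fos and Fosb had libraries with 0 counts and thus no such ratio. In Bach2KO mice, the coefficient of variation was 25.0% for Jun and 27.1% for Ier2, but 104% for Junb, 122% for Dusp1 and 152% for Egr1 (n = 4 each).

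**Figure D1:**
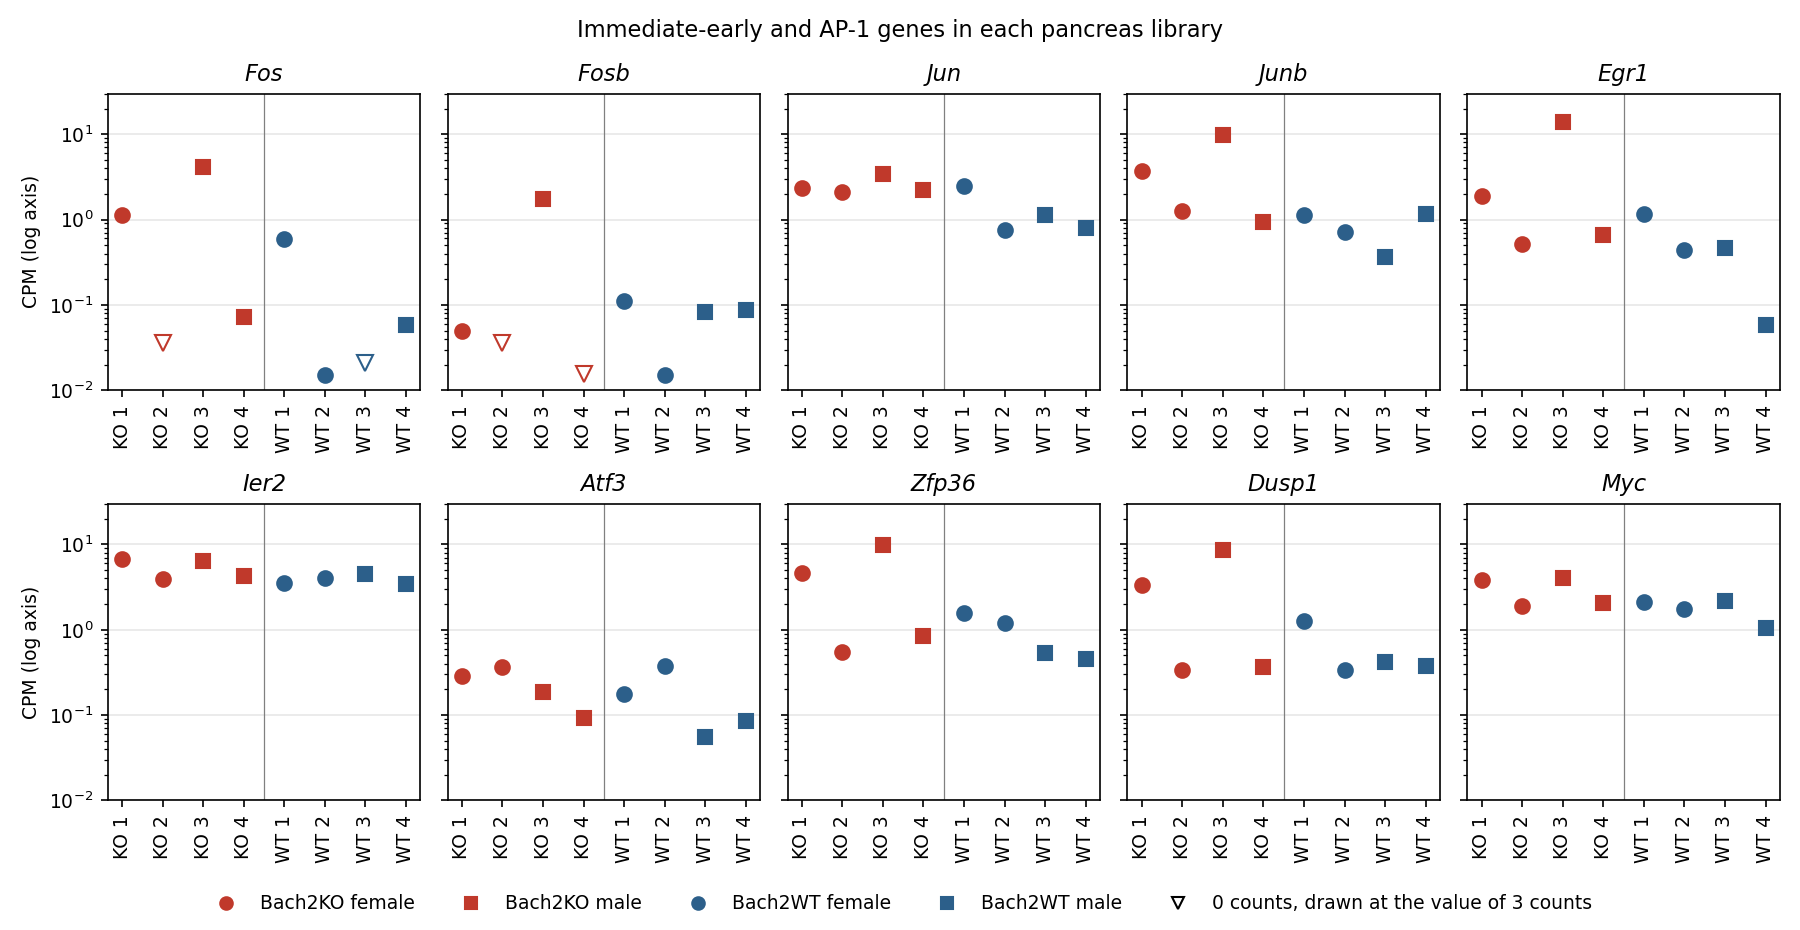
Level of each of the 10 genes (CPM, logarithmic axis) in the 8 pancreas libraries, with Bach2KO mice 1 to 4 at the left (red) and Bach2WT mice 1 to 4 at the right (blue), circles for females and squares for males. Open triangles are libraries with 0 counts, drawn at the level of 3 counts. Bach2KO mouse 3 has the highest value in 8 of the 10 panels, and the genotypes overlap in every panel.

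Fos (ENSMUSG00000021250, GRCm39 chromosome 12, 85520664 to 85524047), the founding AP-1 subunit, was close to absent in most mice. In Bach2KO mice 1 to 4 it had 184, 0, 313 and 14 counts, or 1.14, 0, 4.14 and 0.0726 CPM. In Bach2WT mice 1 to 4 it had 53, 2, 0 and 4 counts, or 0.589, 0.0152, 0 and 0.0576 CPM. Fos was thus seen at more than 0.1 CPM in Bach2KO mice 1 and 3 and in Bach2WT mouse 1 only, and a count of 0 allows up to 0.0362 CPM in Bach2KO mouse 2 and up to 0.0209 CPM in Bach2WT mouse 3 at a floor of 3 counts. If each read pair added 2 counts, the floor would be 6 counts, or 0.0725 and 0.0418 CPM. The mean was 1.34 ± 1.94 CPM in Bach2KO and 0.165 ± 0.283 CPM in Bach2WT mice (SD, n = 4), and the difference did not pass a two-sided exact permutation test (p = 0.286, with 0.0286 the smallest p that 4 against 4 mice allow). Fosb (ENSMUSG00000003545, chromosome 7, 19036621 to 19043976), its close relative, had 132 counts in Bach2KO mouse 3 and 0 to 12 counts in the other 7 mice. Its level was 1.74 CPM in that mouse, 0.0494 CPM in Bach2KO mouse 1, 0 in Bach2KO mice 2 and 4, and 0.0152 to 0.111 CPM in Bach2WT mice (exact permutation p = 0.971). Neither Fos nor Fosb passed the filter on low counts of the fit across genes, so 8 of the 10 genes were tested in it.

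The Jun subunits, which pair with Fos proteins or with each other, were measured in every library, Junb at 52 to 739 counts and Jun at 56 to 427 counts. Junb (ENSMUSG00000052837, chromosome 8, 85701113 to 85705347) stood at 3.73, 1.24, 9.76 and 0.933 CPM in Bach2KO mice 1 to 4 and at 1.12, 0.709, 0.362 and 1.17 CPM in Bach2WT mice 1 to 4. Of the Bach2KO mice, 3 lay above the highest Bach2WT value, and mouse 4 did not. The fitted difference was 2.23 on the log2 scale (SE 0.64, edgeR's quasi-likelihood test, adjusted p = 0.513). Jun (ENSMUSG00000052684, chromosome 4, 94937271 to 94940459) stood at 2.37, 2.08, 3.46 and 2.21 CPM in Bach2KO mice and at 2.45, 0.762, 1.13 and 0.806 CPM in Bach2WT mice 1 to 4. Of the Bach2WT mice, 3 lay below the lowest Bach2KO value, and Bach2WT mouse 1 lay above all Bach2KO mice except mouse 3. The log2 difference of Jun was 0.97 (SE 0.36, edgeR adjusted p = 0.607). These gene models overlap others on the opposite strand, Junb with Prdx2 and Jun with the antisense gene Junos, and whether reads were assigned by strand is not stated in the sources used here. Prdx2 had a log2 difference of -0.22 (SE 0.20), and whether reads of overlapping genes add to the levels of Junb and Jun was not tested.

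Beside Jund, the third Jun gene and one that is known to be expressed without a stimulus, Jun and Junb formed the smaller part of Jun family transcripts. Jund made up 52.2% of the summed FPKM of Jun, Junb and Jund in Bach2KO mouse 3, 61.8% in Bach2KO mouse 1, 68.8% in Bach2KO mouse 2 and 76.3% in Bach2KO mouse 4. In Bach2WT mice it made up 75.6% to 87.9%. The Jund level itself was 4.37 to 9.70 CPM in Bach2KO and 5.72 to 6.78 CPM in Bach2WT mice (log2 difference 0.06, SE 0.22, edgeR adjusted p = 0.975). Of the summed FPKM of Fos, Fosb and Fosl2, Fos made up 71.7% and 78.7% in Bach2KO mice 1 and 3 and 78.3% in Bach2WT mouse 1, and 0% to 28.0% in the other 5 mice, in which Fosl2 made up the larger part (69.2% to 100%). These shares, and Jund, were looked at after the values had been seen.

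**Figure D2:**
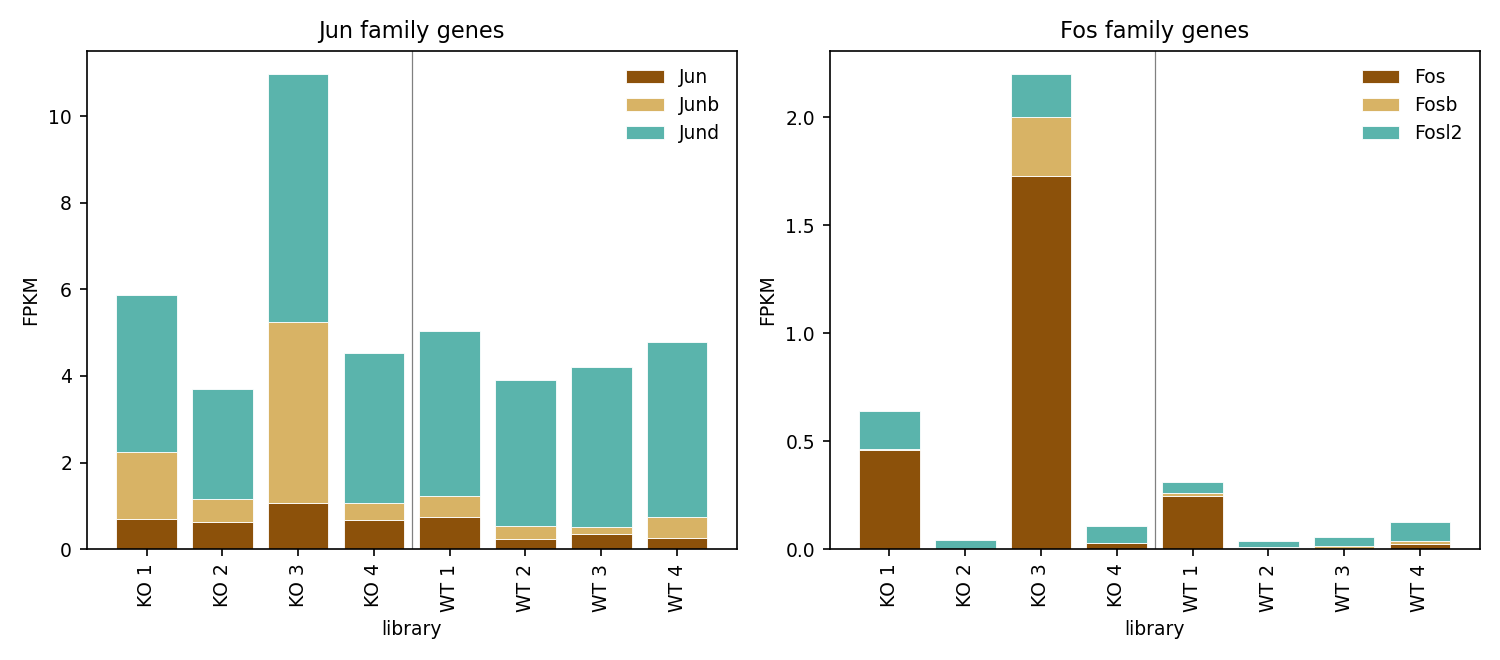
FPKM of the Jun family genes Jun, Junb and Jund (left) and of the Fos family genes Fos, Fosb and Fosl2 (right), stacked for each of the 8 libraries, Bach2KO before Bach2WT mice. The Jund segment is the tallest of the left panel in all 8 libraries, and Bach2KO mouse 3, with 1.73 FPKM of Fos, has the tallest column in both panels.

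Egr1 and Atf3 encode transcription factors outside the Fos and Jun families, a zinc finger protein and a basic leucine zipper protein of the stress response. Egr1 (ENSMUSG00000038418, chromosome 18) had the widest range of the 8 genes that were detected in every library. It stood at 1.87, 0.519, 13.8 and 0.653 CPM in Bach2KO mice 1 to 4 and at 1.18, 0.442, 0.467 and 0.0576 CPM in Bach2WT mice 1 to 4. Only Bach2KO mice 1 and 3 lay above the highest Bach2WT mouse, and the log2 difference was 2.95 (SE 0.97, edgeR adjusted p = 0.539). Atf3 (ENSMUSG00000026628, chromosome 1, 190902493 to 190950236) stood at 0.284, 0.362, 0.185 and 0.0933 CPM in Bach2KO and at 0.178, 0.373, 0.0557 and 0.0864 CPM in Bach2WT mice. Its values interleaved, at 6 to 49 counts per library, and the log2 difference was 0.40 (SE 0.77, edgeR adjusted p = 0.952).

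Dusp1 and Zfp36 encode feedback proteins that end the response, a phosphatase of MAP kinases and an RNA-binding protein that speeds the decay of AU-rich mRNAs. Dusp1 (ENSMUSG00000024190, chromosome 17, 26724564 to 26781102) stood at 3.37, 0.338, 8.51 and 0.363 CPM in Bach2KO mice 1 to 4 and at 1.28, 0.335, 0.425 and 0.374 CPM in Bach2WT mice 1 to 4. Bach2KO mice 2 and 4 lay within the Bach2WT range, and the log2 difference was 2.38 (SE 0.86, edgeR adjusted p = 0.597). The Dusp1 gene model overlaps Ergic1 on the opposite strand, whose log2 difference was -0.50 (SE 0.24). Zfp36 (ENSMUSG00000044786, chromosome 7, 28076209 to 28079678) stood at 4.65, 0.543, 9.80 and 0.840 CPM in Bach2KO and at 1.57, 1.20, 0.529 and 0.461 CPM in Bach2WT mice 1 to 4. As for Dusp1, Bach2KO mice 2 and 4 lay within the Bach2WT range (log2 difference 2.06, SE 0.74, edgeR adjusted p = 0.593). The gene model overlaps the predicted gene Gm44710 on the other strand.

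Myc, which drives ribosome synthesis and growth, and Ier2, a small nuclear protein induced along with Fos, were expressed in all mice and varied least. Myc (ENSMUSG00000022346, chromosome 15, 61857240 to 61862223) stood at 3.83, 1.88, 4.07 and 2.05 CPM in Bach2KO mice 1 to 4 and at 2.12, 1.78, 2.17 and 1.04 CPM in Bach2WT mice 1 to 4. Its log2 difference was 0.73 (SE 0.32, edgeR adjusted p = 0.656). Ier2 (ENSMUSG00000053560, chromosome 8, 85387960 to 85389483) stood at 6.80, 3.97, 6.39 and 4.23 CPM in Bach2KO and at 3.55, 3.99, 4.46 and 3.41 CPM in Bach2WT mice 1 to 4. Its log2 difference was 0.47 (SE 0.21, edgeR adjusted p = 0.663). For both genes it was again Bach2KO mice 1 and 3 that lay above every Bach2WT mouse, while mice 2 and 4 did not.

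Over the 8 tested genes, the difference between the genotypes pointed the same way and did not pass correction. None of the 8 was called at an adjusted p of 0.05 (adjusted p 0.513 to 0.952), in a comparison that called 0.0078% of 12820 tested genes, which is 1 gene (Rnase2a, a ribonuclease of eosinophils, named here after its values were seen). By the unadjusted p, 7 of the 8 lay below 0.05 with a higher level in Bach2KO mice, while 3.9% of all tested genes did. All 8 had a log2 difference above 0, as did 54.7% of all tested genes, and 4 of 8 (Egr1, Dusp1, Junb and Zfp36) had one above 1, as did 5.76% of all. Their median was 1.52, with 0.05 over all tested genes. In none of the 8 were the groups without overlap, against 4.49% of all tested genes. By two-sided exact permutation tests of log2(CPM + 0.1), gene by gene, p was 0.114 to 0.400. DESeq2 on the same counts also called none of the 8 (log2 differences 0.37 to 2.97), where it called 0.483% of all genes with an adjusted p. By its unadjusted p, 6 of 8 were below 0.05 and higher, as were 3.57% of all genes.

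The differences rested in large part on single mice. Without Bach2KO mouse 3, 1 of 8 genes (Junb) had an unadjusted p below 0.05 with a higher level in Bach2KO mice, beside 3.45% of all genes then tested. The log2 differences were then 1.22 for Junb (edgeR adjusted p = 0.570), 1.16 for Dusp1, 1.08 for Zfp36, 0.90 for Egr1, 0.77 for Jun, 0.52 for Myc, 0.46 for Atf3 and 0.35 for Ier2, all above 0. Leaving out Bach2WT mouse 2 or mouse 4 left 4 of 8 genes below 0.05, beside 3.36% and 3.63% of all genes. Without Bach2KO mouse 1 it was 5 of 8 (3.08% of all genes) and without Bach2WT mouse 1 it was 6 of 8 (5.55%). Without Bach2KO mouse 2 (3.45%), Bach2KO mouse 4 (4.08%) or Bach2WT mouse 3 (3.59%), 7 of 8 were below 0.05. The sign of all 8 log2 differences was positive whichever mouse was left out. Fos, which is not among these 8, passed the filter on low counts in 7 of the 8 fits. Its log2 difference there ranged from 1.30, without Bach2KO mouse 3, to 6.03, without Bach2WT mouse 1. Its unadjusted edgeR p was 0.00579 to 0.404 and its adjusted p 0.261 to 0.931.

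**Figure D3:**
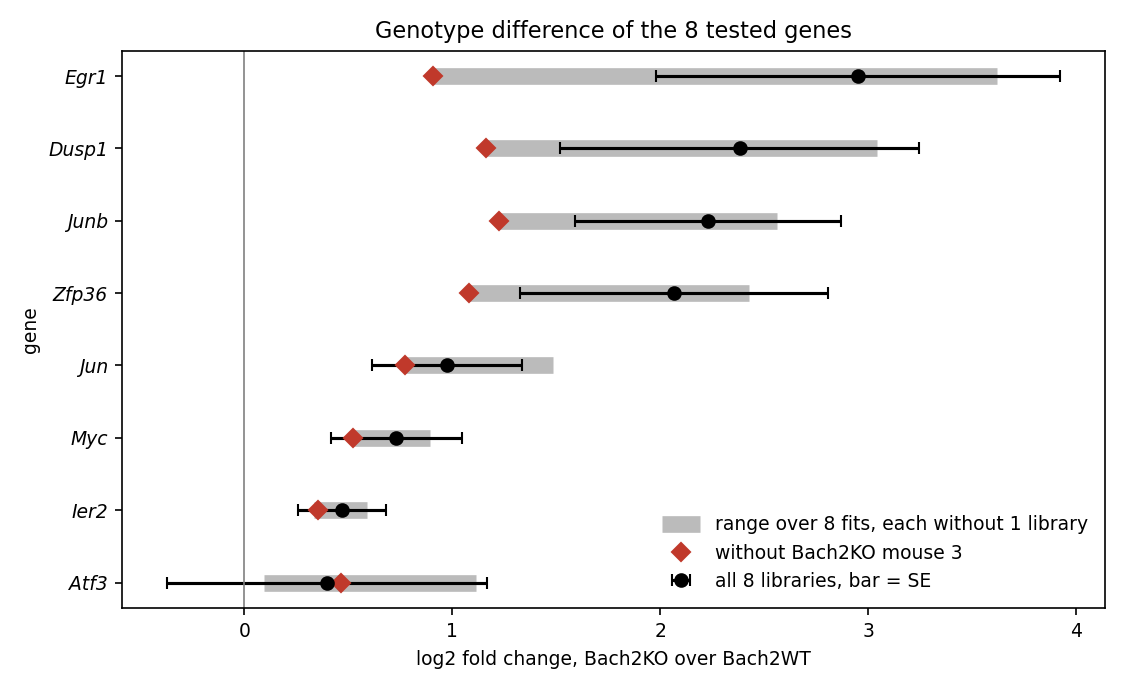
Log2 fold change of Bach2KO over Bach2WT mice for the 8 tested genes (horizontal axis). Black points with bars are the fit of all 8 libraries with its standard error, grey bands span the 8 fits that each leave out 1 library, and red diamonds are the fit without Bach2KO mouse 3. For Egr1 the estimate moves from 2.95 to 0.90 when that mouse is left out, and no band crosses 0.

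The mice differed in the genes as a group. Ranked over the 8 libraries, Bach2KO mouse 3 was highest in 8 of the 10 genes, and Bach2KO mouse 1 was among the highest 3 in 9 of the 10. Bach2WT mouse 1 was among the highest 3 in 6 of the 10 genes, and Bach2WT mouse 4 was the lowest in 4. The mean of the 10 genes, each as log2(CPM + 0.1) and scaled to z-scores over the 8 libraries, was 1.61 in Bach2KO mouse 3, 0.87 in Bach2KO mouse 1 and 0.07 in Bach2WT mouse 1. It was -0.28 and -0.36 in Bach2KO mice 2 and 4 and -0.43 to -0.87 in Bach2WT mice 2 to 4. In Bach2KO the higher and the lower mice included both sexes, with the female mouse 1 and the male mouse 3 above the female mouse 2 and the male mouse 4. In Bach2WT both females (0.07 and -0.43) lay above both males (-0.61 and -0.87).

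From mouse to mouse, most of these genes varied together. Over 8 libraries, the Pearson correlations of the 45 pairs of genes ranged from -0.13 (Fosb and Atf3) to 0.98 (Fos and Dusp1), with a median of 0.76. By two-sided exact permutation tests, 17 of the 45 had an adjusted p below 0.05 for Pearson's r, but for none was this so for Spearman's rho as well. Fos and Dusp1 had r = 0.98 (exact permutation p = 0.00317, adjusted p = 0.0286) and rho = 0.75 (exact permutation p = 0.0380, adjusted p = 0.142), and r was 0.94 without Bach2KO mice 1 and 3, the 2 mice farthest from the median of Fos. Junb and Egr1 had r = 0.81 (exact permutation p = 0.0300, adjusted p = 0.0710) and rho = 0.62 (exact permutation p = 0.115, adjusted p = 0.272), and r was -0.07 without Bach2KO mice 1 and 3. Among the 10 pairs of Fos, Egr1, Junb, Dusp1 and Zfp36, a group formed after the values were seen, r was 0.81 to 0.98, within genotypes 0.72 to 0.98, and -0.07 to 0.97 when the 2 farthest mice were left out. Several of these relations, those of Junb among them, thus rest on Bach2KO mice 1 and 3. Atf3 was apart, with r of 0.13 to Fos and 0.15 to Jun.

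**Figure D4:**
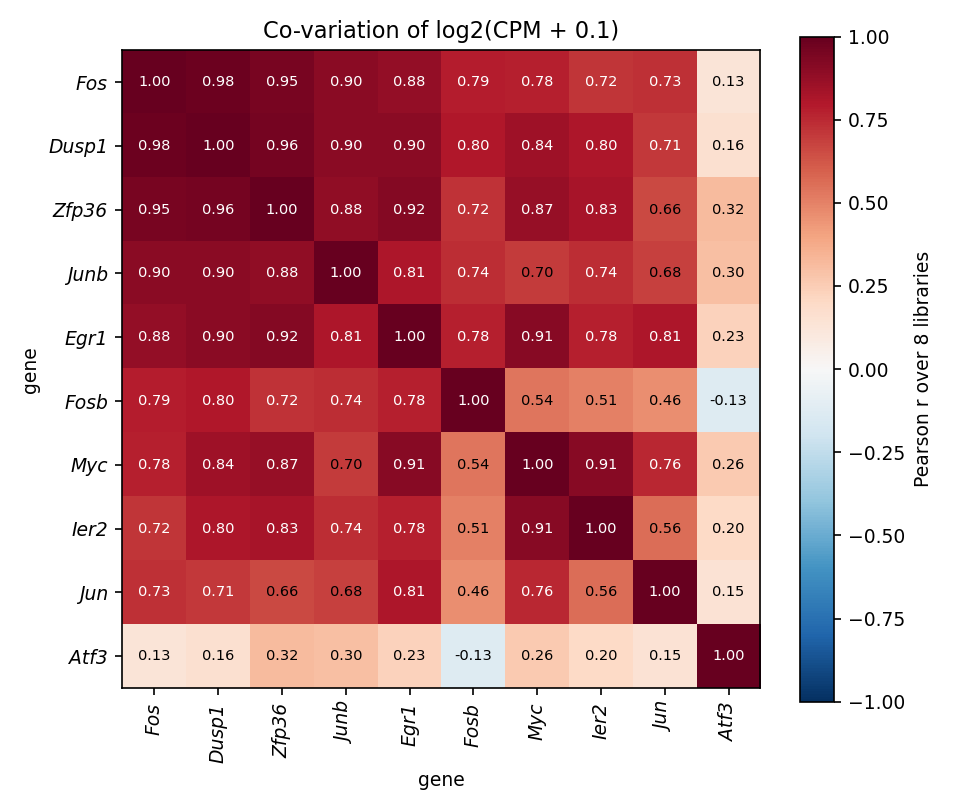
Pearson correlation of each pair of the 10 genes over the 8 libraries, on log2(CPM + 0.1), from blue (-1) to red (1). Fos, Dusp1, Zfp36, Junb and Egr1 form the darkest block, with r from 0.81 to 0.98, and the row and column of Atf3 stay pale.

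The 10 genes outside the set whose log2 CPM followed the mean z-score of the members most closely had r of 0.94 to 0.98 over the 8 libraries. In order these were Errfi1 (a feedback inhibitor of the EGF receptor, r = 0.98), Depp1 (0.98), Dusp2 (a further MAP kinase phosphatase, 0.97), Kat6b, Nr4a1 (an immediate-early nuclear receptor), Txnip (the thioredoxin-interacting protein), Cd9, Emsy, Nt5c3 and Mars2. Errfi1 stood at 4.34, 1.11, 9.76 and 1.49 CPM in Bach2KO mice 1 to 4 and at 1.44, 1.04, 1.16 and 0.691 CPM in Bach2WT mice 1 to 4. Txnip, the most abundant of the 10, stood at 34.3, 10.4, 108.6 and 18.5 CPM in Bach2KO and at 11.5, 6.96, 9.50 and 5.90 CPM in Bach2WT mice. Both were highest in Bach2KO mouse 3 and next highest in Bach2KO mouse 1, as were Fos, Junb and Dusp1. Their choice by this correlation favours such an order, so it is no separate result. None of the 10 had an adjusted p below 0.05 (0.352 to 0.825 in edgeR).

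The other immediate-early genes were counted in the same way. Of 49 other immediate-early genes listed, 44 were tested, 38 had a positive log2 difference, 10 had an unadjusted p below 0.05 with a higher level in Bach2KO mice and none with a lower one, and none was called. Their median was 0.70. Over all tested genes, 54.7% had a positive log2 difference, 3.9% had an unadjusted p below 0.05 with a higher level in Bach2KO mice, and the median was 0.05. Of these 44 genes, 14 (31.8%) correlated with the mean z-score of the members at r above 0.8, as did 1.65% of all 12812 other tested genes. The smallest p belonged to Btg1, an antiproliferative gene, at 4.39 to 7.04 CPM in Bach2KO and 2.98 to 3.50 CPM in Bach2WT mice without overlap (log2 difference 0.73, SE 0.19, edgeR adjusted p = 0.401). Klf6, a zinc finger factor, followed at 0.902 to 3.00 CPM against 0.418 to 0.905 CPM (log2 difference 1.49, SE 0.40, edgeR adjusted p = 0.448).

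Of the other Fos, Jun, ATF and BATF family genes and their partners, 15 were tested, 11 were above 0 and 2 had an unadjusted p below 0.05, both higher in Bach2KO mice. These were Fosl2 (log2 difference 1.25, SE 0.49) and Mafk, a small Maf partner of Bach proteins (0.69, SE 0.28). The median of this list was 0.12. Of the MAP kinase phosphatases and other feedback inhibitors, 13 were tested, 9 were above 0 and 2 (Errfi1 and Spry1) lay below 0.05 and higher, with a median of 0.37. Of the MAP kinase cascade and serum response factor genes, which act upstream, 28 were tested, 18 were above 0 and 3 lay below 0.05 and higher, among them Nras (0.80, SE 0.30) and Mapkapk2 (0.41, SE 0.17), with a median of 0.05. None of these genes was called. Over all tested genes, 54.7% were above 0, 3.9% lay below 0.05 and higher, and the median was 0.05.

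Genes downstream of the members, partners and antagonists of Myc, and heat shock genes were also counted, to be read beside all tested genes. Of those, 54.7% were above 0, 3.9% had an unadjusted p below 0.05 and were higher in Bach2KO mice, and the median was 0.05. Of textbook AP-1 target genes, 10 were tested and 9 were above 0, with a median of 0.34 and none below an unadjusted p of 0.05. The smallest p was that of Plau, the urokinase gene (log2 difference 0.69, SE 0.35), followed by Vegfa (0.42, SE 0.28). Of textbook Myc targets, 9 of 15 were above 0, with a median of 0.14, and the smallest p belonged to Ccnd2, which was lower in Bach2KO mice (-0.51, SE 0.25), and Nop58 (0.88, SE 0.44). Of the partners and antagonists of Myc, 6 of 10 were above 0, with a median of 0.13, and the antagonist Mnt had an unadjusted p below 0.05 (0.76, SE 0.34), while Fbxw7, which marks Myc for degradation, did not (0.55, SE 0.28). Of 12 cytokine and response mRNAs that Zfp36 destabilises, only Ier3 was tested (-0.10, SE 0.53). Of 9 inducible heat shock genes, 5 were above 0, with a median of 0.18, and none was below 0.05, Hspa8 (0.36, SE 0.29) and Dnaja1 (0.42, SE 0.35) having the smallest p. Bach1, the paralog of Bach2, stood at 0.542 to 1.74 CPM in Bach2KO and 0.446 to 1.72 CPM in Bach2WT mice (log2 difference 0.36, SE 0.47).

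Summed markers of cell types followed the members from mouse to mouse to differing degrees. The correlation of their log2(CPM + 0.1) with the mean z-score of the members was 0.92 for endothelial cells. It was 0.68 for neutrophils, 0.57 for T cells, 0.55 for macrophages, 0.50 for stellate cells and 0.38 for islet cells. For adipocytes it was 0.25, for red blood cells 0.16, for B cells -0.20, for duct cells -0.27 and for acinar cells -0.57. The summed level of 10 endothelial markers was 42.7, 37.0, 78.1 and 41.6 CPM in Bach2KO mice 1 to 4 and 42.2, 36.5, 30.2 and 29.8 CPM in Bach2WT mice 1 to 4. It was highest in Bach2KO mouse 3 and lowest in Bach2WT mice 3 and 4, as was the mean z-score of the members, and all 10 markers were detected in every library. By genotype, it ranged from 37.0 to 78.1 CPM in Bach2KO and from 29.8 to 42.2 CPM in Bach2WT mice (exact permutation p = 0.114). The 10 macrophage markers summed to 24.0 to 38.5 CPM and 17.1 to 32.1 CPM (exact permutation p = 0.200), also highest in Bach2KO mouse 3. The 10 islet markers summed to 2050 CPM in Bach2KO mouse 3 and 2340 CPM in Bach2WT mouse 4, which were the highest and the lowest mouse for the members, and to at most 663 CPM in the others. The 10 acinar markers ran the other way by genotype, at the sums given above (exact permutation p = 0.0857). Of these 10, 8 had a log2 difference below 0, while 54.7% of all tested genes had one above 0. The 7 neutrophil markers in the table summed to 0.176 to 1.50 CPM in Bach2KO and 0 to 0.255 CPM in Bach2WT mice (exact permutation p = 0.0571), highest in Bach2KO mouse 2, and each of them was at 0 in at least 1 library. The T cell markers summed to 2.17 to 4.42 CPM in Bach2KO and 0.562 to 4.42 CPM in Bach2WT mice (exact permutation p = 0.286), with 8 of 10 at 0 in at least 1 library. The B cell markers summed to 0.0264 to 1.98 CPM and 0.360 to 5.41 CPM (exact permutation p = 0.429). The part of cell composition, and of the mitochondrial share, in the levels of the members was not tested.

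**Figure D5:**
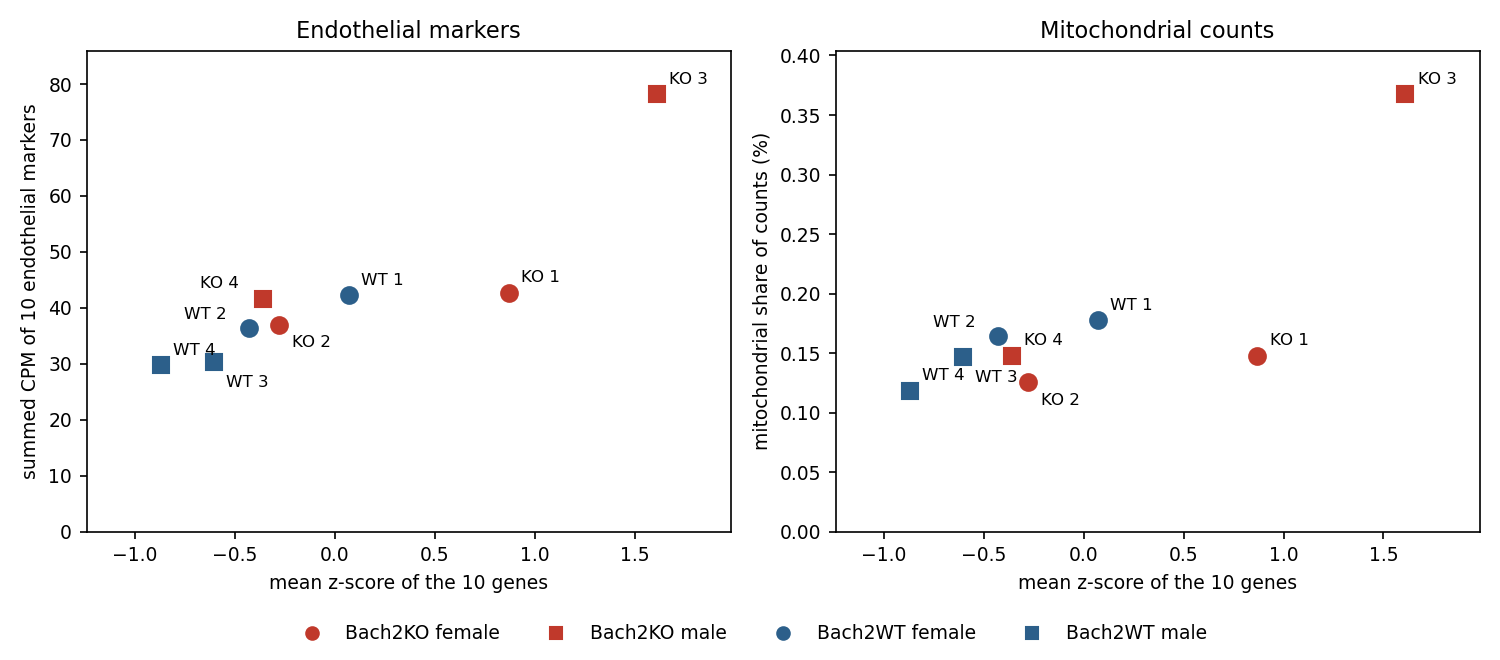
Summed CPM of 10 endothelial markers (left) and mitochondrial share of counts in percent (right) against the mean z-score of the 10 immediate-early and AP-1 genes, 1 point per library, red for Bach2KO and blue for Bach2WT mice. Bach2KO mouse 3 lies at the top right of both panels, at 78.1 CPM and 0.367%. Bach2KO mouse 1, next highest in the members, lies among the other libraries in mitochondrial share. At 42.7 CPM of endothelial markers it lies close to Bach2WT mouse 1 (42.2 CPM) and Bach2KO mouse 4 (41.6 CPM).

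Between the sexes, with genotype as a covariate, none of the 8 tested genes was called (adjusted p 0.890 to 0.993), in a comparison that called 0.0312% of all tested genes. Atf3 was the only one of the 8 with an unadjusted p below 0.05, as 5.29% of all tested genes had, and its level was lower in males (log2 difference -1.59, SE 0.71, edgeR adjusted p = 0.890). Female mice had 0.178 to 0.373 CPM of Atf3 and male mice 0.0557 to 0.185 CPM, which overlapped in 1 mouse of each sex. The other 7 genes differed between the sexes by -0.17 to 0.68 on the log2 scale. Whether the genotype difference itself differed between the sexes was tested with 2 mice per cell. None of the 8 genes was called (adjusted p 0.807 to 0.998), and 0% of all tested genes were, with 6.14% at an unadjusted p below 0.05. Egr1 was the only member below 0.05 (interaction 4.05 on the log2 scale, SE 1.60, edgeR adjusted p = 0.807), where Bach2KO mouse 3 is the highest and Bach2WT mouse 4 the lowest of the 4 males. Without Bach2KO mouse 3 the Egr1 interaction was 0.67 (SE 1.34), and without Bach2WT mouse 3 it was 6.33 (SE 2.24).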

How the data were processed

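Pancreatic poly(A) RNA of 4 Bach2KO and 4 Bach2WT mice was sequenced as paired-end reads. Per the submitters' processing notes, fastp, HISAT2 2.2.1, featureCounts 2.0.6 and mm39 were used. The authors deposited 1 table with raw counts per gene, which were used for all tests, and FPKM values, which the authors normalized by library and gene length and which were used only to compare levels between genes. The table's other columns, the authors' normalized counts, fold changes and p-values for the genotypes, were not used.

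Genotypes were compared on the deposited counts with edgeR 4.0.16 (quasi-likelihood test, TMM, filterByExpr on genotype, Benjamini-Hochberg adjustment over 12820 tested genes, threshold 0.05), sex with genotype as a covariate, and their interaction likewise. Members below the filter and summed levels were compared by two-sided exact permutation tests, and log2 values used a pseudocount of 0.1. The p-values measure the spread between these mice. The fit was tested on simulated data. Alternatives were DESeq2 1.42.0, RLE factors, other filters, library sizes without digestive enzymes, counts divided by 2, a gene length correction (loess, span 0.3), sex or the mouse number in the fit, and each mouse left out. Depth was 72299745 to 172029360 counts, and floors of 3 counts cover counting error only. Named were all 10 members, the 2 tested genes of smallest p in each list, and the 10 genes most correlated with the members. Members and lists were chosen with earlier results of these data known.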

Additional observations from a re-analysis of the deposited data

Results flagged for a closer look

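In 4 of 20 groups of 4 values (10 genes in each genotype), 1 mouse lay far from the other 3 of its group, with a gap to the next that is too large a part of the group's range by Dixon's test. Chance alone gives such a gap in about 1 in 20 groups if values are normally distributed. The test was applied to CPM without a log transform, where that rate need not hold, so the 4 of 20 cannot be set against it. Egr1 stood at 13.8 CPM in Bach2KO mouse 3, with the next highest Bach2KO mouse at 1.87 CPM. Fosb stood at 1.74 CPM in the same mouse, with the next at 0.0494 CPM. In Bach2WT mice it was mouse 1 that lay apart, with Fos at 0.589 CPM (next 0.0576 CPM) and Dusp1 at 1.28 CPM (next 0.425 CPM). The 4 values thus come from 2 mice, 1 of each genotype, and genes of 1 library are not independent of each other.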

How the results depend on the processing

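All 8 tested genes kept a log2 difference above 0 between Bach2KO and Bach2WT mice under every alternative that was run, and with at least 10 counts in every library 6 of them could be tested. None was called under any of them except the edgeR fit without a filter on low counts, which called 0.341% of 21434 genes. There Junb (log2 difference 2.23, SE 0.45, edgeR adjusted p = 0.0158) and Egr1 (2.94, SE 0.64, edgeR adjusted p = 0.0256) were called, 2 genes in all. The main fit gave nearly the same differences with larger errors, 2.23 (SE 0.64) for Junb and 2.95 (SE 0.97) for Egr1. Over all genes, the 1 call for genotype became 75 in DESeq2 and 73 without a filter, and 0 with at least 10 counts in every library, with counts divided by 2, with sex as a covariate, with a replicate block and whichever mouse was left out (0 to 0). The sources used here do not say that same-numbered mice were paired. The deviations of same-numbered mice from their group means correlated at 0.21, -0.03, -0.04 and -0.05. Those of differently numbered mice correlated at -0.16 to 0.11. These values cannot show whether same-numbered mice shared a harvest, a batch or a site. With the replicate block, 4 of the 8 genes had an unadjusted p below 0.05, beside 3.77% of all tested genes, higher in Bach2KO mice. The log2 differences were then 2.12 for Egr1, 1.63 for Junb, 1.41 for Dusp1 and 1.38 for Zfp36. They were 1.12 for Jun, 0.71 for Myc, 0.59 for Atf3 and 0.44 for Ier2.

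For sex, the 4 calls over all genes became 19 in DESeq2, 152 without a filter, 1 with at least 10 counts, and 2 to 9 with a mouse left out. For the interaction, the 0 calls became 14 in DESeq2, 92 without a filter (0.429% of 21434 genes), and 0 to 6 with a mouse left out. Of the 92, 3 were members (Fos, Egr1 and Zfp36). Without a filter the Egr1 interaction was 4.02 (SE 0.58), beside 4.05 (SE 1.60) in the main fit. That of Zfp36 was 2.45 (SE 0.55), beside 2.48 (SE 1.36). Signs of uncalled values turned. The sex difference of Ier2 was -0.13 with the gene length correction. With a mouse left out, the log2 sex differences ranged from -0.34 to 0.11 (Myc), -1.24 to 1.50 (Egr1), -0.11 to 0.20 (Ier2), -1.50 to 0.86 (Dusp1), -0.71 to 0.82 (Junb), -1.52 to 0.19 (Zfp36) and -0.39 to 0.34 (Jun), and the interactions from -0.43 to 0.35 (Ier2), -0.21 to 0.99 (Myc), -1.14 to 2.40 (Junb), -0.16 to 4.75 (Zfp36), -1.37 to 4.69 (Dusp1), -0.0070 to 1.68 (Jun) and, without a change of sign, 0.67 to 6.33 (Egr1). The log2(CPM + 0.1) difference of Fosb ranged from -0.57, without Bach2KO mouse 3, to 0.83. The causes were not tested.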
